A study of Mus musculus with 9 samples.

Results

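The comparison of liver X receptor double knockout (LXR DKO) with wild type (WT) corona radiata cells covered 15773 genes, chosen because their deposited RPKM value (read number divided by gene length and by the size of its library) was at least 1 in 3 or more of the 6 libraries compared. They make up 28.8% of the 54838 genes in the matrix. At the edge of this rule, 633 genes reached the value in exactly 3 libraries, with a median of their mean RPKM of 1.09, and 813 genes reached it in 2 libraries and stayed out, with a median of 0.885. Corona radiata cells are the innermost layer of cumulus cells, which derive from granulosa cells and enclose the oocyte. They came from adult mice that had received PMSG, which drives follicle growth, and hCG, which triggers ovulation. The WT group and the LXR DKO group held 3 libraries each, and both groups received the same hormones. Another genotype, LXR DKO TG-AMH-LXRb, carries a transgene on the double knockout and had 3 libraries that entered the model only to estimate the spread of each gene. These libraries differed less from each other than the WT libraries did, so the spread used is not that of the compared groups alone. The strain, the deleted part of each receptor gene and the promoter of the transgene are not given in the labels. The labels say that libraries were made in triplicate and do not tie them to separate animals. The p-values therefore cover only the spread among these libraries, which may be technical.

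The receptors respond to oxysterols, which are oxidised cholesterol, and act as a dimer with the retinoid X receptors. LXR alpha (Nr1h3) and LXR beta (Nr1h2) activate genes of cholesterol export and fatty acid synthesis when bound by ligand, and without ligand they hold corepressors on chromatin. They also restrain inflammatory genes in macrophages. In the ovary, cumulus cells supply the oocyte with metabolites and, after the ovulatory signal, build a matrix of hyaluronan around it.

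Reads in genes, worked back from the RPKM values, lay between 29822412 and 44049966. For a gene with 1 kb of exons, 3 reads corresponded to 0.0638 RPKM in the deepest library and 0.0965 in the shallowest. Some libraries stood apart in the summed RPKM of markers of other cells. Oocyte markers summed to 1170 in WT 1 and 561 in LXR DKO 1, against 2.63 to 15.9 in the other 4. In WT 3 the erythroid markers summed to 9880 and the oviduct secretory markers to 2160, against 58.7 to 971 and 397 to 1130 in the other 5. Macrophage markers summed to 1280 in WT 3 and 1300 in LXR DKO 2, and to 550 to 804 elsewhere. Of the members in these lists (oocyte 5, erythroid 5, macrophage 14 and oviduct secretory 11), 0 passed the limma test or voom, and at an unadjusted p under 0.05 there was 1, a macrophage gene. Of 12 cumulus and granulosa markers, 11 were among the members. So were 14 of 14 macrophage, 11 of 11 oviduct secretory and 8 of 10 ciliated epithelium markers. This count therefore does not single out the labelled cell type. No list had a marker at 0 in all 6 libraries. Values are uncertain where a gene has a near-identical copy or overlaps another on the opposite strand, because the sources used here name neither the annotation nor the strand setting of the counting.

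In LXR DKO, 1809 of the 15773 genes (11.5%) differed from WT at an adjusted p under 0.05 in limma, with 597 higher (3.78%) and 1212 lower (7.68%). Most changes were moderate. The median size among the 1809 was 0.614 on the log2(RPKM + 1) scale, with quartiles of 0.474 and 0.825, while the median over all members was 0.188. A change of more than 1 was reached by 99 genes that rose and 176 that fell, and a change of more than 2 by 19 that rose and 9 that fell. The median log2 fold change over all members was 0.0122. The WT and LXR DKO libraries did not overlap for 4680 genes (29.7%), of which 2092 were higher (13.3%) and 2588 lower (16.4%). These included all 1809. Separate ranges, where given below for a gene that passed, therefore add nothing to its call. Without WT 3 the test gave 2229 genes (948 higher, 1281 lower), and without WT 1 and LXR DKO 1 together it gave 1247 (385 higher, 862 lower). Leaving out LXR DKO 3 lowered the number most, to 653 (191 higher, 462 lower). On the WT and LXR DKO libraries alone, without the transgenic ones, 902 genes passed (249 higher, 653 lower). A stricter group of 547 genes (3.47%), called steady here, passed with the same sign in the settings and left-out libraries listed with the processing. Class counts below are over the genes that met the RPKM rule, and the shares to set them against are 3.78% higher and 7.68% lower. Some lists share genes, so 1 gene can be counted in several classes. Of the steady genes, 158 rose (1% of members) and 389 fell (2.47%).

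**Figure D1:**
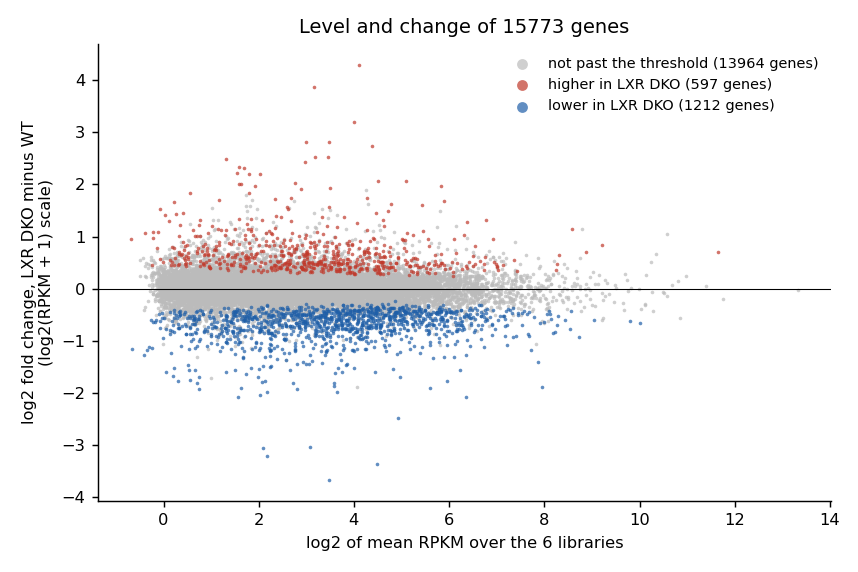
Each point is 1 of the 15773 genes, with the log2 of its mean RPKM over the 6 libraries on the x axis and its log2 fold change, LXR DKO minus WT, on the log2(RPKM + 1) scale on the y axis. Red points are the 597 genes that rose and blue points the 1212 that fell, while grey points did not pass the test. Genes that changed lay at every level of expression.

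The share of genes that passed grew with the level of expression. It was 8.54% of genes with a mean RPKM under 5, 11.6% from 5 to 20, 15.7% from 20 to 100 and 18.5% above 100. The highest 482 genes gave 21 that rose and 68 that fell. The log2(RPKM + 1) scale understates changes of low genes. The longest annotated transcript had a median of 1510 bases above 100 RPKM and 2540 under 5. The part of scale and length in this order was not tested.

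The targeted receptors were low in the LXR DKO libraries. Nr1h2 (ENSMUSG00000060601, mm10 chr7:44549616-44553951) stood at 45.7, 39.7 and 39.7 RPKM in WT 1 to 3 and at 3.57, 2.85 and 3.03 in LXR DKO 1 to 3. Nr1h3 (ENSMUSG00000002108, chr2:91184061-91202834) stood at 3.50, 5.72 and 4.95 in WT and at 1.08, 0.713 and 0.933 in LXR DKO. The fall was 3.36 ± 0.12 (SE) on the log2 scale for Nr1h2 and 1.57 ± 0.17 for Nr1h3. Reads remained in both genes, and the files do not say whether they lie outside the deleted parts.

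Of the 19 listed LXR targets among the members, 2 rose and 5 fell, and Nr1h3 is itself 1 of those that fell. Abcg5, Abcg8, Apoc2 and Arl4c were listed but lay below the rule. When 1 library was left out, 0 to 3 rose and 2 to 7 fell, and with the length trend removed 1 rose and 6 fell. Mylip, an E3 ligase that marks the LDL receptor for degradation, had 3.09, 4.71 and 5.29 RPKM in WT and 1.42, 1.37 and 1.86 in LXR DKO, and it was the steady fall of the list apart from Nr1h3 (-1.06 ± 0.18). The 2 stearoyl-CoA desaturases moved apart. Scd2 had 395, 451 and 287 RPKM in WT and 203, 175 and 240 in LXR DKO (-0.86 ± 0.17, adjusted p = 0.0165), while Scd1 had 17.6, 19.8 and 10.9 against 24.6, 24.7 and 33.8 (0.77 ± 0.21, adjusted p = 0.0498). Neither was steady: adjusted p was 0.173 for Scd1 without LXR DKO 3, and 0.0602 for Scd2 without LXR DKO 2. Abca1, the cholesterol exporter, had 15.4, 17.3 and 8.81 RPKM in WT and 14.6, 20.5 and 18 in LXR DKO, so the groups overlapped. Srebf1, the lipogenic transcription factor, had 30.6, 31.2 and 27.7 against 26.7, 20.5 and 22.3 and did not pass (-0.36 ± 0.10, adjusted p = 0.0537).

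Promoter sequences are shown for 6 genes described below, because they stand for the histidine pathway, the matrix and growth factor genes and the immediate early genes that changed. Each is 300 bases around the RefSeq start, most of them before it, from GRCm38.p6, written 5′ to 3′ on the strand of the gene. The windows are Tnfaip6 chr2:52037863-52038162 (plus strand), Igf1 chr10:87860861-87861160 (plus), Hal chr10:93488518-93488817 (plus), Amdhd1 chr10:93539984-93540283 (minus), Fos chr12:85473640-85473939 (plus) and Jun chr4:95052173-95052472 (minus). Capitals mark any match, on either strand, to the AP-1 motif TGANTCA, the CRE motif TGACGTCA or the TATA motif TATAAA.
Tnfaip6: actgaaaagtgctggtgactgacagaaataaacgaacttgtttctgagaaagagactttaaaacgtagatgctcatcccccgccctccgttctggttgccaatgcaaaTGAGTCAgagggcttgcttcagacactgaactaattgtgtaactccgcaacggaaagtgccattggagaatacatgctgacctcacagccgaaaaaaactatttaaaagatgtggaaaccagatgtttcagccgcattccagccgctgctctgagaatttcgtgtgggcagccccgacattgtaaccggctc
Igf1: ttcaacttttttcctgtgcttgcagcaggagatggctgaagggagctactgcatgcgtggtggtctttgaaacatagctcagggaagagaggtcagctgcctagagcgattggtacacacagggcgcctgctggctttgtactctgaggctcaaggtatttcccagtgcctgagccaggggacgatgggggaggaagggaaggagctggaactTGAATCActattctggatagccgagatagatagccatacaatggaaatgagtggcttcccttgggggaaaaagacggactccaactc
Hal: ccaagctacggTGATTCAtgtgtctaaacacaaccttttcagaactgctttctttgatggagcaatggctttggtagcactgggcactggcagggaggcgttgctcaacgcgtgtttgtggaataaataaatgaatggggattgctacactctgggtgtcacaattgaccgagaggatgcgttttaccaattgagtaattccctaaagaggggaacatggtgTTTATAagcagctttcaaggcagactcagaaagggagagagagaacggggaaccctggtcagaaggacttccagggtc
Amdhd1: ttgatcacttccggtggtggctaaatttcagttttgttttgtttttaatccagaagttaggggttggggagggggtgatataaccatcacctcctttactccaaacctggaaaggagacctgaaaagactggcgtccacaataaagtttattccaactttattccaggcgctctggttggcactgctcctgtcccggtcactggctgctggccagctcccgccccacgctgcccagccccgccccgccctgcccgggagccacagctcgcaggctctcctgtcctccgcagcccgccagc
Fos: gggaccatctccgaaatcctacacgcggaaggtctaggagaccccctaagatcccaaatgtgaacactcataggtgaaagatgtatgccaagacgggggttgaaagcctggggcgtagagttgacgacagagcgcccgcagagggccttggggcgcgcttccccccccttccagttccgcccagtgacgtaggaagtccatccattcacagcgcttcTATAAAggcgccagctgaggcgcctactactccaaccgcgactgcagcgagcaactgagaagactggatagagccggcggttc
Jun: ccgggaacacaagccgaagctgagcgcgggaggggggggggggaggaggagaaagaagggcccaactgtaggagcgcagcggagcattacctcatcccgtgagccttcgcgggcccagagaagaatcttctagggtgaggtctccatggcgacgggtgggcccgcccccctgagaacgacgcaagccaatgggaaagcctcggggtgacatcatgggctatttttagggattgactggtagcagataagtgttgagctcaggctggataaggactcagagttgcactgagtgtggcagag
AP-1 is the dimer of Fos and Jun proteins. Its motif stood 142 bases before the start of Tnfaip6, 37 before that of Igf1 and 239 before that of Hal. A TATA motif stood 28 bases before the start of Hal and 33 before that of Fos, and the windows of Amdhd1 and Jun held none of the 3 motifs. Of the 11337 protein-coding members, 8962 had a window in the RefSeq table. The AP-1 motif was in 6.05% of them, in 5.62% of those that rose (20 of 356) and in 7.63% of those that fell (35 of 459), against 7.81% of all 32851 windows. Among the steady genes that fell it was in 10.3% (16 of 156). The CRE motif was in 3.51% of the members with a window, 1.97% of those that rose and 3.27% of those that fell. The perfect form of the LXR element DR4, in which the hexamer AGGTCA stands at both ends with 4 bases between, was in 0 of the 8962 windows and in 5 of all 32851. No match says only that these letters are not in the window.

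The falls were concentrated in short transcripts and in processed pseudogenes, which are intronless copies of messenger RNAs. Of 11337 protein-coding members, 469 rose and 621 fell, with a median log2 fold change of 0.0366. Of 3506 processed pseudogenes, 96 rose and 502 fell, with a median of -0.0846. Processed pseudogenes were 22.2% of the members and 41.4% of the genes that fell. Among long noncoding RNAs, 9 rose (5.06%) and 17 fell (9.55%) of 178 intergenic ones, near the shares over all members (3.78% and 7.68%). Of 112 antisense ones, 1 rose (0.893%) and 15 fell (13.4%). Of 199 pseudogenes of ribosomal proteins, 4 rose and 36 fell (median -0.200). Reads of a pseudogene and of its parent gene cannot be told apart where the copies are near-identical.

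Transcript length, taken as the longest annotated transcript of each gene in GENCODE M21, ordered the protein-coding genes in the same way. Among the 56 with at most 500 bases, 0 rose and 19 fell (median -0.537). From 500 to 750 bases, 1 rose and 57 fell of 175 (median -0.372), and from 750 to 1000 bases, 2 rose and 63 fell of 302 (median -0.211). Above 5000 bases, 121 rose and 64 fell of 2361 (median 0.108). The tilt was present in all libraries at the short end. As the median deviation of the 56 shortest genes from their own mean over the 6 libraries, WT 1 to 3 stood at 0.140, 0.192 and 0.305 on the log2 scale and LXR DKO 1 to 3 at -0.250, -0.199 and -0.357. At the long end WT 3 (-0.215) and LXR DKO 3 (0.120) stood apart, and the other 4 libraries lay between -0.004 and 0.0428. Of the 1483 processed pseudogenes with at most 500 bases, 29 rose and 383 fell, whereas of the 529 with 1000 to 1500 bases, 27 rose and 13 fell.

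**Figure D2:**
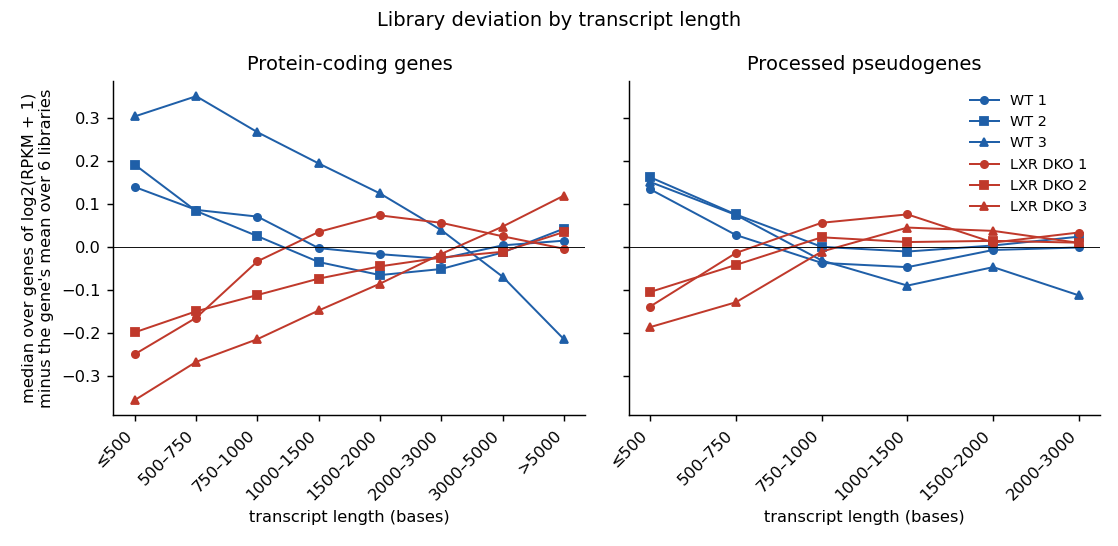
Each point is the median, over genes of 1 bin of transcript length (x axis, bases), of log2(RPKM + 1) minus the mean of the gene over the 6 libraries (y axis), with protein-coding genes on the left, processed pseudogenes on the right and 1 line per library. For protein-coding genes of at most 500 bases the WT libraries lie at 0.140 to 0.305 and the LXR DKO libraries at -0.357 to -0.199.

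Because length differs between gene classes, the test was repeated on the protein-coding members with the trend of each library over transcript length taken out, a setting chosen after seeing the data. Of 11337 genes it gave 503 higher and 591 lower, against 469 and 621 without the correction, and 862 of the 1090 genes kept their call and sign. In transcripts of at most 1000 bases the counts went from 3 higher and 139 lower to 32 higher and 43 lower. Length-adjusted counts are given below beside classes whose count they moved by more than 1.5 times. They leave out members not annotated as protein-coding. Where fewer members were fitted, the counts before and after therefore cover unlike sets.

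Nuclear genes of oxidative phosphorylation, the mitochondrial chain that makes ATP, fell or did not pass. Of 81 members in complexes I, III, IV and V, 0 rose and 33 fell, 14 of them steady (median -0.338). Complex IV, cytochrome c oxidase, had 9 of 12 lower (median -0.515), complex I had 14 of 36 (median -0.336), complex V, the ATP synthase, 7 of 22 (median -0.166) and complex III 3 of 11 (median -0.315). Cox7c had 25.8, 28.9 and 20.7 RPKM in WT and 11.9, 12.2 and 13.6 in LXR DKO (-0.94 ± 0.15, adjusted p = 0.00621). Ndufa5, a complex I subunit, had 24.8, 24.2 and 27.1 against 14.2, 15.1 and 14.9 (-0.74 ± 0.08, adjusted p = 0.0015). Ndufa12, a complex I subunit, had 29.7, 29.4 and 43.4 against 18, 16.9 and 14.6 (-0.99 ± 0.15). Every LXR DKO library lay below every WT library for these 3 genes, as in all genes that passed as lower. Sdhc, the membrane anchor of succinate dehydrogenase, fell from 19.2, 18.9 and 25.1 to 11.6, 11 and 11.2 RPKM. With the length trend removed, 1 rose and 12 fell of the 73 protein-coding members, and their median was -0.0567. The rest of the 81 match by symbol but are not annotated as protein-coding, so the 33 and the 12 come from unlike sets. Leaving out 1 library at a time gave 4 to 10 lower in complex IV, 6 to 15 in complex I, 3 to 7 in complex V and 2 to 3 in complex III.

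Ribosomal protein genes showed the same tilt with large single changes on top. Of 85 cytosolic ribosomal protein members, 2 rose and 20 fell (median -0.166). With the length trend removed, 4 rose and 9 fell of the 80 that are protein-coding (median -0.00358). Rpl29 had 19.4, 20.8 and 17.9 RPKM in WT and 3.73, 5.31 and 4.76 in LXR DKO (-1.87 ± 0.13, adjusted p = 0.000107). Rpl34 had 10.7, 11.1 and 10.4 against 3.29, 3.15 and 3.39 (-1.46 ± 0.09, adjusted p = 5.31e-05). Rplp1, a stalk protein of the large subunit, had 83.1, 85.6 and 84.9 against 36.3, 45.3 and 36.9 (-1.08 ± 0.11). The 2 that rose were Rpl3, from 28.7, 32.1 and 28.8 to 42.9, 49.1 and 44.5 RPKM, and Rpl15, from 26.9, 31.8 and 26.3 to 41.3, 40.3 and 40.2. All of these genes have processed pseudogenes, so their values are uncertain. Of 81 mitochondrial ribosomal protein members, 0 rose and 11 fell (median -0.145). With the length trend removed, 1 rose and 5 fell of the 77 that are protein-coding. The number that fell was 4 without LXR DKO 3 and 18 without LXR DKO 1, and for the cytosolic genes it was 13 without LXR DKO 3. Mrps12 had 58.8, 57.7 and 62.1 RPKM in WT and 32.6, 26.3 and 22.6 in LXR DKO (-1.12 ± 0.12).

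Histone genes, whose transcripts are short, gave 1 higher and 11 lower of 48 (median -0.481). With the length trend removed, 0 were higher and 6 lower of the 42 that are protein-coding. Hist1h2ap, a replication-dependent H2A gene, fell from 8.62, 6.67 and 6.66 to 3.17, 2.91 and 2.17 RPKM. H2afj, an H2A variant gene, fell from 29.8, 24.4 and 29.1 to 17.2, 17.4 and 13.4. Hist1h1b, a linker histone, fell from 4.98, 5.82 and 3.92 to 2.47, 0.965 and 0.819 RPKM, and its adjusted p was 0.0512 without LXR DKO 3. Of 26 genes of the G1/S transition and replication and 24 of G2/M, 0 passed in limma or in voom, with 2 and 1 at an unadjusted p under 0.05. The G2/M list had a median of -0.168, with 5 of 24 above 0. Its mean log2(RPKM + 1) was 2.92 in WT 1 and 2.85 in LXR DKO 1, the libraries high in oocyte markers, and 1.76 to 2.03 in the other 4. The difference of these lists from the histones was not tested. Without LXR DKO 3 the histone count was 5 lower and without LXR DKO 1 it was 15.

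**Figure D3:**
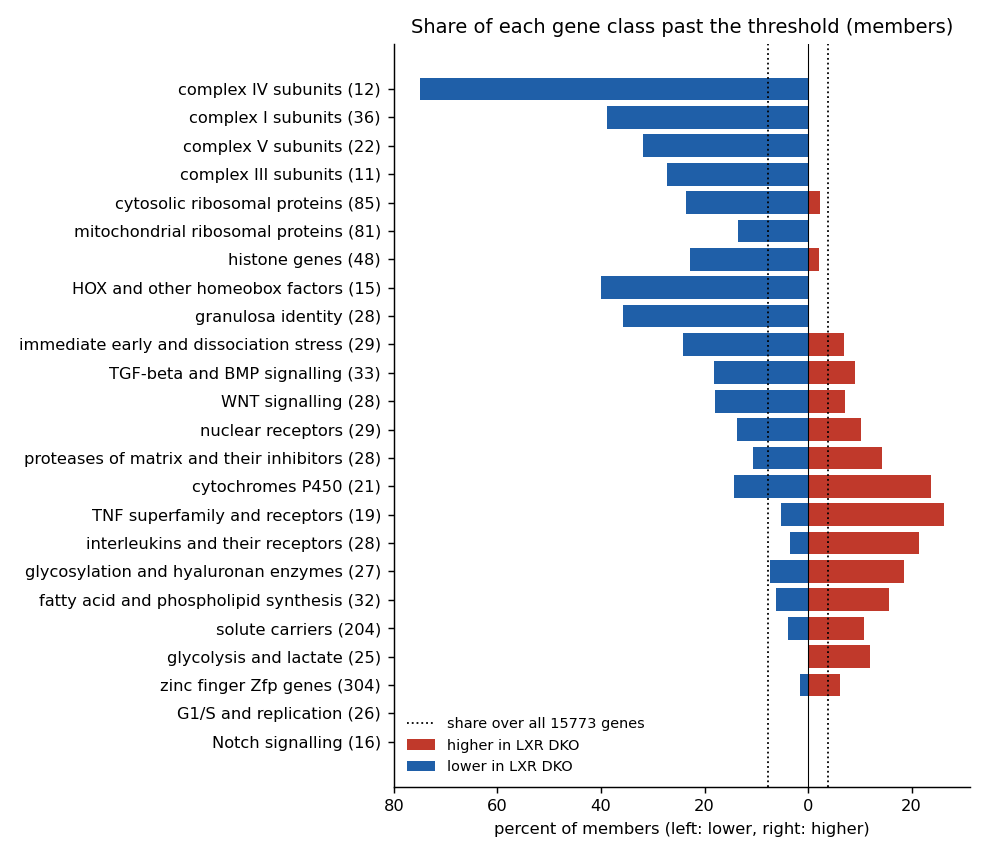
Bars give the percent of the members of each class (number in parentheses) that passed the test, with genes lower in LXR DKO to the left and higher to the right, and dotted lines give the shares over all 15773 genes (7.68% and 3.78%). Respiratory, ribosomal, histone, homeobox and granulosa classes extend to the left, and cytokine, glycosylation, glycolysis and solute carrier classes extend to the right.

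Genes that identify granulosa cells gave 0 higher and 10 lower of 28 (median -0.448). With the length trend removed it was 12. Hsd17b1, which makes estradiol from estrone, had 79.8, 91.2 and 83.0 RPKM in WT and 48.4, 27.9 and 27.2 in LXR DKO (-1.32 ± 0.22, adjusted p = 0.00788). LXR DKO 1 lay between the WT libraries and the other 2 LXR DKO libraries. Inhba, the activin subunit, showed the same order, with 171, 146 and 144 against 105, 83.0 and 64.8 (-0.89 ± 0.19, adjusted p = 0.0222), and its adjusted p was 0.0776 without LXR DKO 3. The summed RPKM of the cumulus and granulosa markers was 835, 767 and 753 in WT and 652, 427 and 437 in LXR DKO, and most of it came from Inha, Inhba and Fst. Of the 11 members of that list, 3 fell and 0 rose, and 1 (without WT 1) to 6 (without LXR DKO 1) fell when 1 library was left out. Nr5a1, the steroidogenic factor SF-1, had 33.1, 32.2 and 24.7 RPKM in WT and 35.5, 32.7 and 36.9 in LXR DKO. Amhr2, Esr2 and Fshr, receptors for AMH, estrogen and FSH, were higher in LXR DKO 1 than in any WT library. In LXR DKO 2 and 3, Amhr2 (13.3 and 15 RPKM) and Esr2 (5.56 and 6.35) lay below every WT library. Fshr (4.93 and 6.69) lay within the WT range there. As the mean log2(RPKM + 1) of the list, WT stood at 4.83 to 5.10 and LXR DKO at 4.4 to 4.93, so the groups overlapped. In these bulk samples, fewer granulosa cells and less RNA per cell cannot be told apart. Macrophage markers summed to 550 to 1280 in WT and 675 to 1300 in LXR DKO, and oviduct secretory markers to 397 to 2160 and 592 to 1130, and their part in the result was not tested. The number of the 28 identity genes that fell was 2 without LXR DKO 2, 3 without LXR DKO 3, 13 without WT 3 and 10 without WT 1 and LXR DKO 1.

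Of 15 homeobox factors among the members, 0 rose and 6 fell (median -0.365), none of them steady. Irx3, which is also in the granulosa identity list, had 26.9, 22.6 and 20.5 RPKM in WT and 16.3, 8.96 and 10.1 in LXR DKO. Hoxd10, a positional factor of the HOXD cluster, had 2.94, 7.18 and 2.68 against 0.0788, 0.856 and 1.15, with WT 2 the highest library. Adjusted p rose to 0.0836 for Irx3 without LXR DKO 3 and to 0.056 for Hoxd10 without LXR DKO 2. The count was 1 without LXR DKO 2 and 0 in the fit on the 6 libraries alone.

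Immediate early genes, which cells switch on within minutes of a stimulus and also during tissue dissociation, gave 2 higher and 7 lower of 29 (median -0.045). Fos had 55.6, 53.9 and 61.7 RPKM in WT and 40.6, 34.4 and 28.9 in LXR DKO (-0.71 ± 0.12, adjusted p = 0.00695). Jun had 89.0, 86.7 and 100 against 53.8, 54.7 and 47.9 (-0.81 ± 0.10, adjusted p = 0.00182). Jund, another AP-1 partner, had 49.8, 44.0 and 37.9 against 27.5, 14.8 and 15 (-1.21 ± 0.21). Nr4a2, an orphan nuclear receptor induced with them, had 6.56, 6.78 and 6.88 against 3.59, 3.81 and 2.33 (-0.89 ± 0.15). For all 4 genes the LXR DKO libraries lay below the WT libraries, which holds for every gene that passed as lower. Of 23 genes of this list with a promoter window, 0 held the AP-1 motif and 3 held the CRE motif. When 1 library was left out, 0 to 2 rose and 5 to 10 fell, and with the length trend removed 1 rose and 5 fell.

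WNT signalling genes gave 2 higher and 5 lower of 28 (median 0.0298), and the steady changes touched a receptor, 2 transcription factors and a co-receptor. Fzd1, a Frizzled receptor, had 60.1, 47.2 and 39.2 RPKM in WT and 15, 12.2 and 15.5 in LXR DKO (-1.70 ± 0.15, adjusted p = 0.000362). Tcf7l1 had 4.28, 3.94 and 3.29 against 1.68, 1.76 and 1.59 (-0.85 ± 0.11), and Tcf7l2 had 5.94, 5.46 and 5.46 against 2.63, 2.85 and 2.78 (-0.82 ± 0.10). Both encode factors that bind beta-catenin on DNA. Kremen1, a receptor of the WNT inhibitor Dickkopf, rose from 13.8, 13.6 and 10.2 to 20.2, 21.3 and 24.8 RPKM (0.78 ± 0.13). The ranges of WT and LXR DKO did not touch for any of these 4 genes, which holds for every gene that passed. The number that fell was 3 without LXR DKO 2, and the number that rose was 1 without WT 1, LXR DKO 2 or LXR DKO 3. Dixdc1, a DIX domain protein of the same pathway, rose from 1.79, 1.46 and 2.00 to 13.1, 12.6 and 16.1 RPKM (2.44 ± 0.13).

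TGF-beta and BMP genes gave 3 higher and 6 lower of 33 (median -0.0255). Acvrl1, the type I receptor ALK1 for BMP9 that is best known from endothelium, had 1.88, 1.69 and 2.47 RPKM in WT and 23.2, 17.7 and 20.2 in LXR DKO (2.83 ± 0.14, adjusted p = 1.37e-05). Endothelial markers summed to 2.65 to 3.80 in WT and 4 to 6.34 in LXR DKO, and 0 of the 2 members of that list passed. Their part in the result was not tested. Smurf1, a ubiquitin ligase for SMAD proteins, rose from 12.2, 11.5 and 9.09 to 16.8, 19.4 and 19.0 RPKM (0.71 ± 0.11). Id1, a direct BMP target, had 57.1, 54.8 and 62.1 in WT and 39.4, 17.6 and 19.9 in LXR DKO (-1.23 ± 0.24, adjusted p = 0.0151), with an adjusted p of 0.0667 without LXR DKO 3. The number of genes that fell was 0 without LXR DKO 3 and 10 without LXR DKO 1.

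In the EGF receptor and MAPK list, 3 rose and 3 fell of 27. Dusp6, the phosphatase that shuts off ERK, had 151, 162 and 124 RPKM in WT and 70.0, 65.9 and 62.6 in LXR DKO (-1.11 ± 0.13, adjusted p = 0.00136). Lrig1, a membrane protein that lowers EGF receptor levels, rose from 24.6, 22.6 and 18 to 41.9, 41.8 and 43.6 RPKM (0.95 ± 0.11, adjusted p = 0.00174). Spry2, another ERK inhibitor, had 2.69, 4.05 and 1.64 against 5.80, 8.43 and 6.01 (1.06 ± 0.23, adjusted p = 0.0199). Btc, an EGF receptor ligand, had 13.1, 12.9 and 9.56 RPKM in WT and 6.02, 7.6 and 5.48 in LXR DKO (-0.80 ± 0.18). Neither was steady, with an adjusted p of 0.0714 for Spry2 without LXR DKO 2 and 0.102 for Btc without LXR DKO 3. The feedback inhibitors did not move in 1 direction. When 1 library was left out, 1 to 3 rose and 1 to 3 fell.

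Among other pathways, the Hedgehog transducer Smo rose from 14.9, 15.2 and 12.9 to 23.6, 24.1 and 25.6 RPKM (0.73 ± 0.09) and was the 1 gene of 6 that passed. Npr1, the natriuretic peptide receptor that makes cGMP, rose from 19.9, 13.5 and 11.2 to 38.6, 32.2 and 33.5 (1.21 ± 0.17, adjusted p = 0.0042). It was 1 of 2 genes that rose among 21 of cAMP and cGMP signalling, of which 0 fell, while 2 rose and 3 fell with the length trend removed. Igf1, a growth factor of granulosa cells whose promoter is shown above, fell from 4.07, 5.01 and 5.72 to 1.60, 1.73 and 1.34 RPKM (-1.21 ± 0.13, adjusted p = 0.00114). It was the 1 gene of 31 in the IGF and mTOR list that passed. Of 16 Notch genes, 0 passed in limma or in voom, with 4 at an unadjusted p under 0.05. The same tests gave 0 of 26 genes of sterol uptake and lipid droplets, with 3 at an unadjusted p under 0.05.

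Nuclear receptors gave 3 higher (10.3%) and 4 lower (13.8%) of 29, against 3.78% and 7.68% over all members. The steady falls were Nr4a2 and the targeted genes themselves, Nr1h2 and Nr1h3. Thrb, the thyroid hormone receptor beta, was the steady rise and had 1.40, 1.80 and 2.04 RPKM in WT and 4.21, 5.75 and 5.24 in LXR DKO (1.14 ± 0.14, adjusted p = 0.00219). When 1 library was left out, 1 to 2 nuclear receptors rose and 3 to 4 fell. Coregulators gave 1 higher and 3 lower of 22, and the 3 that fell were steady. Gps2, a subunit of the NCoR corepressor complex, had 27.5, 25.1 and 26.8 RPKM in WT and 13.0, 12.0 and 9.31 in LXR DKO (-1.15 ± 0.12, adjusted p = 0.000786). Ncor1, the scaffold of that complex, had 19.8, 19.6 and 17.5 against 13.6, 13.1 and 12.8 (-0.49 ± 0.09, adjusted p = 0.0096). Cited1, a CBP/p300-binding coactivator, had 2.71, 2.54 and 2.76 against 1.33, 0.954 and 0.991. No WT and LXR DKO library overlapped for any of the 3, as for all genes that passed. Smarcd1, a subunit of the SWI/SNF remodelling complex, had 7.22, 8 and 6.35 RPKM in WT and 0.942, 1.38 and 0.677 in LXR DKO (-2.04 ± 0.15, adjusted p = 0.00011). It was the 1 gene that fell among 35 of chromatin remodelling, of which 1 rose, and with the length trend removed 3 fell.

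**Figure D4:**
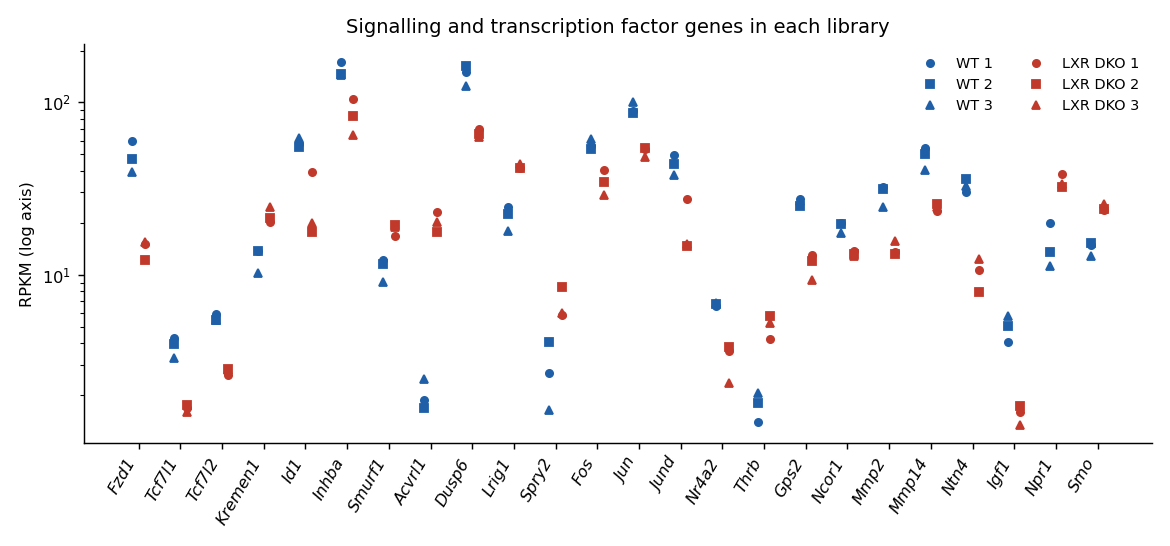
RPKM (log axis) of 24 signalling and regulatory genes in WT 1 to 3 (blue) and LXR DKO 1 to 3 (red). Acvrl1 stands at 1.69 to 2.47 in WT and 17.7 to 23.2 in LXR DKO, and for Id1 and Jund the LXR DKO 1 point lies nearer to WT than the other 2.

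Secreted and extracellular matrix genes changed in both directions. Tnfaip6, whose product links hyaluronan in the cumulus matrix, had 450, 391 and 324 RPKM in WT and 107, 114 and 89.7 in LXR DKO (-1.89 ± 0.17, adjusted p = 0.000337). Among 28 matrix proteases and inhibitors, 4 rose and 3 fell, with 2 to 4 and 2 to 5 when 1 library was left out. The number that rose was 2 without WT 2 or any 1 LXR DKO library, and 5 fell without LXR DKO 1. Mmp2, gelatinase A, had 32.4, 31.2 and 24.8 against 13.5, 13.2 and 15.7 (-1.0 ± 0.15), and Mmp14, which activates it, had 54.6, 50.5 and 40.5 against 23.3, 25.8 and 24.8 (-0.94 ± 0.12). Both were lower in each LXR DKO library than in any WT library, like every gene that passed as lower. Adamts1, the protease that cleaves versican at ovulation, rose from 15.2, 13.0 and 11.4 to 50.6, 33.5 and 34.6 RPKM (1.5 ± 0.17, adjusted p = 0.00131). A2m, a broad protease inhibitor, rose from 2.92, 2.77 and 1.91 to 14.3, 22.4 and 21.8 (2.52 ± 0.18, adjusted p = 0.000107). Laminins gave 2 higher of 5, Lamb2 (0.49 ± 0.10) and Lamc1 (0.60 ± 0.17), with adjusted p of 0.0747 and 0.169 without LXR DKO 3. Without LXR DKO 2, 0 laminins rose.

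Of 27 glycosylation and hyaluronan genes, 5 rose and 2 fell. Cemip, which degrades hyaluronan, had 6.47, 6.47 and 4.65 RPKM in WT and 10.2, 9.29 and 11.3 in LXR DKO (0.72 ± 0.14). Csgalnact1, which starts chondroitin sulfate chains, had 1.2, 1.39 and 1.00 against 2.57, 2.55 and 2.18 (0.65 ± 0.11). Fut8, which adds the core fucose of N-glycans, had 16.4, 14.7 and 10.8 against 23.6, 20.6 and 25.4 (0.71 ± 0.14). Without LXR DKO 3 the number that rose was 1, with an adjusted p of 0.0582 for Cemip and 0.0691 for Fut8. The number that fell was 0 when WT 1, WT 2 or either of LXR DKO 2 and LXR DKO 3 was left out.

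Guidance molecules gave 4 higher and 2 lower of 30. Ntn4, a netrin of basement membranes, had 30.1, 35.9 and 32.9 RPKM in WT and 10.6, 7.95 and 12.4 in LXR DKO (-1.60 ± 0.16, adjusted p = 0.000762), and Unc5b, a netrin receptor, had 1.54, 1.97 and 1.5 against 0.621, 0.597 and 0.695 (-0.70 ± 0.11). Sema7a, a membrane-anchored semaphorin, rose from 37.6, 27.1 and 9.95 to 95.2, 70.8 and 102 RPKM (1.97 ± 0.40, adjusted p = 0.0163). WT 3 was the lowest library for Sema7a, and its adjusted p was 0.0686 without LXR DKO 3. With that library left out, 0 guidance genes rose and 2 fell. F2r, the thrombin receptor PAR1, fell from 98.0, 90.4 and 103 to 27.2, 29.0 and 27.3 RPKM (-1.77 ± 0.10, adjusted p = 4.96e-05), and F2rl2, the related receptor PAR3 encoded beside it, fell from 8.12, 5.17 and 7.15 to 2.68, 2.32 and 2.46 (-1.15 ± 0.17).

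Solute carriers, the transporters of ions and metabolites, gave 22 higher and 8 lower of 204 (median 0.108). Slc38a3, a glutamine transporter, had 1.06, 1.08 and 0.721 RPKM in WT and 7.37, 5.68 and 6.93 in LXR DKO (1.97 ± 0.14, adjusted p = 9.75e-05), whereas Slc38a1, another of the family, had 6.52, 6.65 and 4.54 against 2.35, 2.29 and 2.33 (-1.04 ± 0.13). The 2 glutamine carriers thus changed in opposite directions. Slc12a8 rose from 9.08, 8.92 and 5.67 to 19.2, 14.5 and 15.6 RPKM (0.99 ± 0.17). Slc11a1, a phagosomal metal transporter known from macrophages, had 26.2, 19.6 and 17.5 RPKM in WT and 61.8, 65.5 and 68.5 in LXR DKO (1.60 ± 0.14, adjusted p = 0.000311). Macrophage markers summed to 550, 592 and 1280 in WT and 675, 1300 and 804 in LXR DKO, and their part in this result was not tested. The number that rose was 7 without LXR DKO 3, and the number that fell was 2 without LXR DKO 2 or LXR DKO 3 and 3 without WT 1. Without WT 1 and LXR DKO 1, 12 rose and 6 fell.

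Iron handling genes gave 2 higher and 3 lower of 22. Slc40a1, the iron exporter ferroportin, had 212, 233 and 217 against 124, 110 and 115 (-0.92 ± 0.11, adjusted p = 0.00183). Hmox1, which breaks down heme, had 20, 24.0 and 20.3 RPKM in WT and 33.0, 43.1 and 68.5 in LXR DKO (1.07 ± 0.23, adjusted p = 0.0214, and 0.0628 without WT 1). Ppox, an enzyme of heme synthesis, fell from 14.5, 13.3 and 14.1 to 8.6, 8.13 and 7.37 (-0.73 ± 0.09). The ferritin light chain gene Ftl1 and its copies fell in 4 of 4 cases, but their reads may be shared, and the call of Ftl1 (-0.61 ± 0.13) was lost with the length trend removed and without LXR DKO 3 (adjusted p = 0.077). With the length trend removed, 1 iron gene rose and 2 fell. Without LXR DKO 2, 0 rose.

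The pathway that breaks down histidine contained the largest rise outside the interferon-inducible Ifi202b. Hal, which removes ammonia from histidine, had 0.205, 0.190 and 0.383 RPKM in WT and 13.8, 21.3 and 18.1 in LXR DKO (3.88 ± 0.15, adjusted p = 4.67e-06). Amdhd1, an enzyme further down the same pathway, had 0.0751, 0.0558 and 0.105 against 3.00, 2.73 and 2.84 (1.84 ± 0.11, adjusted p = 5.31e-05). The genes are neighbours on chromosome 10, Hal at 93488768-93519304 and Amdhd1 at 93523338-93540033, with their leftmost bases 34.6 kb apart. Their promoters are shown above. The WT values of Amdhd1 are near the limit of 3 reads, so its fold change depends on the pseudocount.

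Lipid enzymes gave 5 higher and 2 lower of 32 (median 0.197). Chka, choline kinase, rose from 6.78, 6.08 and 5.02 to 10.7, 9.19 and 10.3 RPKM (0.67 ± 0.11). Acsl3, which activates long-chain fatty acids, fell from 13.3, 15.5 and 13.1 to 8.67, 6.22 and 7.06 (-0.85 ± 0.14). Outside that list, Etnk2, an ethanolamine kinase, fell from 5.49, 4.56 and 6.39 to 0.909, 0.537 and 0.698 RPKM (-1.92 ± 0.13, adjusted p = 0.000102). Also outside it, Cers4, a ceramide synthase, had 0.448, 0.764 and 0.614 RPKM in WT and 6.78, 6.03 and 6.30 in LXR DKO (2.20 ± 0.11, adjusted p = 1.37e-05). All 6 libraries of each of these 4 genes fell into separate ranges by genotype, as they did for every gene that passed. Glycolysis and lactate genes gave 3 higher and 0 lower of 25 (median 0.270), namely Hk2 (0.51 ± 0.14), Pfkp (0.48 ± 0.09) and the lactate exporter Slc16a3 (0.71 ± 0.15). None of the 3 was steady. Without LXR DKO 3, 0 of the glycolysis genes passed and 1 lipid enzyme rose.

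Cytochromes P450, oxidases of steroids, fatty acids and foreign compounds, gave 5 higher and 3 lower of 21. Cyp2d22 had 0.279, 0.339 and 1.44 RPKM in WT and 5.73, 5.71 and 5.03 in LXR DKO (2.01 ± 0.22, adjusted p = 0.0012). Cyp4b1 had 22.3, 22.8 and 22.1 against 12.4, 7.91 and 7.99 (-1.19 ± 0.16, adjusted p = 0.0028), and its pseudogene copy Cyp4b1-ps2 had 6.41, 4.87 and 4.72 against 2.51, 1.89 and 1.22. The parent and the copy cannot be told apart with certainty. Without WT 1 and LXR DKO 1, 2 P450 genes rose. With the length trend removed, 4 rose and 1 fell of the 18 protein-coding members that could be fitted. Pseudogenes such as Cyp4b1-ps2, 1 of the 3 that fell, were not in that fit, so these counts do not compare like with like.

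Cytokine genes leaned upward. Of 28 interleukins and their receptors, 6 rose and 1 fell (median 0.367), and of 19 members of the TNF superfamily list, 5 rose and 1, Tnfaip6, fell (median 0.169). Tnfaip6 is a hyaluronan-binding protein and neither a TNF ligand nor a receptor. Il18, a cytokine of the IL-1 family, had 6.01, 8.36 and 7.53 RPKM in WT and 18.8, 15.7 and 18.7 in LXR DKO (1.18 ± 0.16, adjusted p = 0.00372). Il34, a ligand of the CSF1 receptor, had 2.21, 1.74 and 2.48 against 4.60, 4.13 and 5.61 (0.88 ± 0.14). Il1b had 1.30, 2.07 and 1.66 against 4.21, 12.8 and 8.45 (1.73 ± 0.35, adjusted p = 0.0157), with the highest value in LXR DKO 2 and an adjusted p of 0.065 without LXR DKO 3. Macrophage markers, also high in LXR DKO 2, did not pass in any of 14 members. Of 4 neutrophil members, 0 passed in limma or in voom and 2 had an unadjusted p under 0.05, with a median of 0.972. With the length trend removed, 1 of the 4 rose and 0 fell. The neutrophil gene S100a9 had 0.0435, 0 and 1.38 RPKM in WT and 1.28, 7.04 and 2.33 in LXR DKO. Neutrophil markers summed to 21.9 to 75.9 in WT and 37.4 to 53.9 in LXR DKO. Mmp9 was a large part of that sum, at 52.7, 74.4 and 13.3 in WT and 32.7, 16.9 and 41.1 in LXR DKO. The sum therefore says little about the other markers of that list. The part of either cell type in these results was not tested.

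Among the TNF family, Tnfrsf14 had 0.0632, 0.150 and 0.0887 RPKM in WT and 1.48, 2.1 and 2.24 in LXR DKO (1.41 ± 0.15, adjusted p = 0.000926). Tnfrsf1b, the TNF receptor 2, had 10.8, 11.7 and 9.41 against 15.7, 22.5 and 22.8 (0.86 ± 0.14), and the ligand Tnfsf9 had 6.90, 6.34 and 5.93 against 13.1, 12.0 and 11.3 (0.83 ± 0.11). Of 24 inflammation genes, 2 rose (Il18 and Il1b) and 0 fell, although their median was 0.471. Of 25 interferon genes, only Irf1 passed in this test, from 4.52, 5.58 and 6.76 to 11.1, 12.0 and 10.7 RPKM (0.90 ± 0.14, median of the list 0.469). Without LXR DKO 3 the number that rose was 3 for the interleukins and 3 for the TNF family, and without WT 3 it was 7 and 4, and 6 for the interferon genes. The inflammation list had 4 higher without WT 3 or LXR DKO 1, and 1 without WT 1 or LXR DKO 3. The interleukin genes that fell numbered 3 without WT 3 and 0 when WT 1, WT 2 or either of LXR DKO 2 and LXR DKO 3 was left out.

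The family of Zfp zinc finger genes, DNA-binding factors of low expression, gave 19 higher and 5 lower of 304 (median 0.147). Only 3 of the 19 were steady, and the number was 3 without LXR DKO 3 and 4 without WT 1 and LXR DKO 1. Those that fell numbered 1 without LXR DKO 3 and 2 without WT 1 or LXR DKO 2. Zfp125, annotated as a transcribed pseudogene, had 0.278, 0.573 and 0.280 RPKM in WT and 5.22, 4.99 and 6.03 in LXR DKO (2.22 ± 0.14, adjusted p = 7.49e-05). Zfp960 had 2.56, 3.32 and 1.76 against 7.13, 5.71 and 6.26 (1.07 ± 0.17). Zfp97 had 2.85, 3.45 and 1.62 against 6.95, 6.40 and 6.58 (1.1 ± 0.20). Zfp97 and Zfp960 are neighbours on chromosome 17 with similar values in each library, so shared reads cannot be told apart from a shared change. Zfp36l1, which shares the symbol but destabilises messenger RNA, fell from 13.1, 13.1 and 17.2 to 8.27, 7.21 and 6.07 RPKM (-0.92 ± 0.14).

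Changes of more than 1 on the log2 scale were also found in genes of other functions. Sox4, a progenitor factor, had 99.6, 110 and 83.5 RPKM in WT and 46.4, 34.3 and 36.1 in LXR DKO (-1.31 ± 0.15, adjusted p = 0.00175). Rbm45, an RNA-binding protein, had 2.44, 2.92 and 1.75 against 29.7, 30.0 and 29.3 (3.20 ± 0.12, adjusted p = 4.67e-06). Paip1, which binds the poly(A)-binding protein, had 5.01, 5 and 3.67 against 53.4, 29.3 and 29.1 (2.73 ± 0.22, adjusted p = 0.000212). Hyou1, a chaperone of the endoplasmic reticulum, rose from 14.8, 15.1 and 9.13 to 37.1, 44.4 and 43.3 RPKM (1.63 ± 0.17). Cercam fell from 61.0, 53.3 and 42.1 to 7.32, 9.07 and 8.94 (-2.48 ± 0.14, adjusted p = 3.09e-05), and Cd52, a small surface antigen of leukocytes, fell from 152, 109 and 137 to 34.0, 33.5 and 23.9 (-2.09 ± 0.22). In each of these genes the 3 LXR DKO values lay on 1 side of all 3 WT values, as in all genes that passed.

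Some genes were close to absent in 1 genotype. Of the members, 18 stayed under 0.5 RPKM in every WT library and reached 1 in every LXR DKO library, 12 of them protein-coding. The opposite pattern held for 21 members, 10 of them protein-coding. The limit of 0.5 was chosen after the values had been seen, and because these genes were picked for their separation, no test is given for them here. Fgd5, an exchange factor for CDC42, had 0.00361, 0.0301 and 0.0878 RPKM in WT and 3.59, 4.66 and 6.62 in LXR DKO, and Mocs1, an enzyme of molybdenum cofactor synthesis, had 0.278, 0.313 and 0.362 against 5.18, 6.22 and 5.57. In the other direction, Cntnap5a, a neurexin-family adhesion protein, had 9.59, 11.6 and 5.68 in WT and 0.0479, 0.0218 and 0.0159 in LXR DKO. Psca, a GPI-anchored surface antigen, had 2.17, 2.45 and 1.58 in WT and is listed at 0 in all 3 LXR DKO libraries. Lrrn3, a leucine-rich repeat membrane protein, had 2.31, 5.61 and 2.01 against 0.0740, 0.0387 and 0.0600. Single libraries stood out for Cd300e, at 16.3 RPKM in LXR DKO 3, and for Rnf112, at 9.76 in WT 3.

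**Figure D5:**
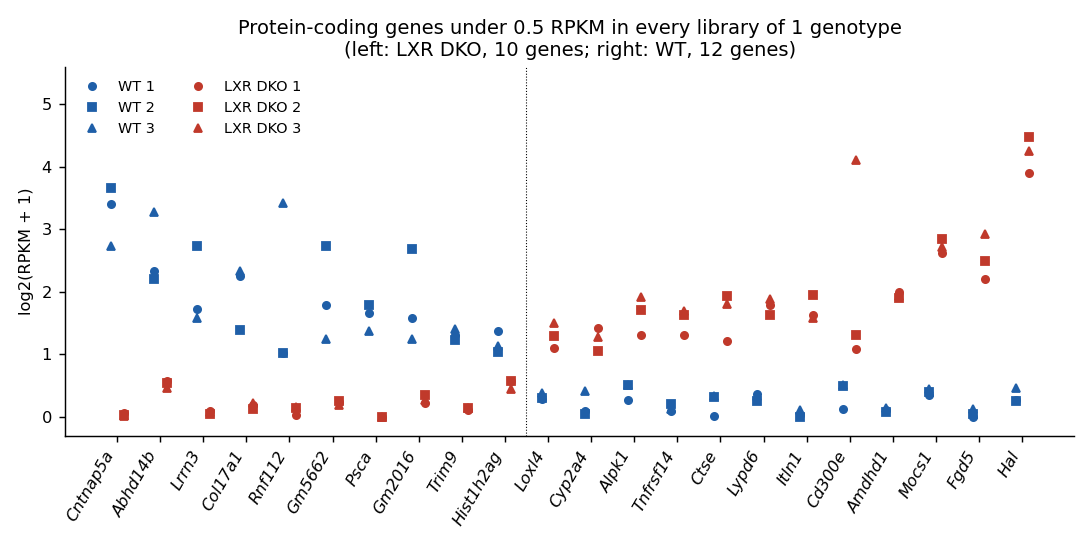
Log2(RPKM + 1) in each of the 6 libraries for the protein-coding genes under 0.5 RPKM in every LXR DKO library (10 genes, left) or in every WT library (12 genes, right), with at least 1 RPKM in every library of the other genotype. The libraries of a genotype lie close together for Hal and Amdhd1, and single libraries stand out for Rnf112 (WT 3) and Cd300e (LXR DKO 3).

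Genes that changed were spread along the genome with some dense windows. Of 539 windows of 5 Mb, 328 held at least 20 members, and the median share past the test in them was 10.4%. The highest was 35.9% (14 of 39, 3 higher and 11 lower) at 35 to 40 Mb of chromosome 15. That window holds the intergenic RNA Gm34093, at 30.8, 20.4 and 13.9 RPKM in WT and 0.589, 0.856 and 0.630 in LXR DKO (-3.68 ± 0.27), and Cthrc1, a secreted collagen repeat protein, at 7.74, 6.14 and 8.47 against 2.19, 1.63 and 2.07. At 170 to 175 Mb of chromosome 1, 6 rose and 8 fell of 62 members, and 12 of these were steady. It holds Ifi202b, with 0.576, 0.732 and 1.00 RPKM in WT and 35.1, 31.1 and 35.0 in LXR DKO (4.30 ± 0.19, adjusted p = 8.86e-06), and Fcrlb, an Fc receptor-like protein, with 1.22, 1.85 and 0.679 against 15.2, 16.1 and 12.7 (2.82 ± 0.20). Olfml2b, an olfactomedin-like matrix protein, Sdhc and Ppox, all lower in LXR DKO, lie on the same chromosome, with Olfml2b at 38.4, 51.7 and 37.1 against 14.4, 12.2 and 14.8.

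Another dense window, 85 to 90 Mb of chromosome 12, had 2 higher and 16 lower of 65. The genes that fell there include Gm16381, with 7.77, 10.3 and 5.54 RPKM in WT and 1.14, 1.13 and 1.27 in LXR DKO, and Gm2001, with 6.91, 10 and 5.24 against 1.66, 1.07 and 1.44. WT 2 was the highest library for both, and whether they share reads could not be resolved. Around the targeted genes the share was not raised: within 5 Mb of Nr1h2, 1 rose and 7 fell of 111 members (7.21%), and within 5 Mb of Nr1h3, 3 rose and 3 fell of 64 (9.38%). Among steady genes, 50 neighbouring pairs had their leftmost bases within 100 kb of each other. Of these, 13 rose together, 23 fell together and 14 moved in opposite directions. Hal with Amdhd1 and F2r with F2rl2 are among the pairs that moved together.

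Abundant genes also changed. Akr1c18, which inactivates progesterone, had 2534, 2763 and 2079 RPKM in WT and 3828, 4270 and 3866 in LXR DKO (0.71 ± 0.16, adjusted p = 0.0257), and its adjusted p was 0.0841 without LXR DKO 2, 0.0814 without LXR DKO 3 and 0.0621 without WT 1. Atxn10 had 372, 373 and 327 against 585, 593 and 559 (0.70 ± 0.10, adjusted p = 0.00372). Wisp2, a matricellular protein, had 79.3, 92.1 and 73.2 against 194, 158 and 126 (0.94 ± 0.16). Prss35, a secreted protease of the ovary, had 240, 358 and 151 RPKM in WT and 537, 506 and 516 in LXR DKO (1.14 ± 0.27). Among the falls, Bex4 had 350, 402 and 270 against 149, 119 and 110 (-1.42 ± 0.17, adjusted p = 0.00198), and Nupr1, a stress-induced nuclear protein, had 532, 518 and 604 against 331, 342 and 209 (-0.94 ± 0.21). Adjusted p was 0.0982 for Prss35 and 0.0645 for Nupr1 without LXR DKO 3, and the calls of Atxn10, Wisp2 and Bex4 were steady.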

How the data were processed

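RNA sequencing of 9 libraries, 3 per genotype, was deposited by the authors as 1 matrix of RPKM values. Per the submitters' processing notes, the genome build was mm10, and DESeq2 1.2.8, HTSeq 0.5.4p5, HISAT2 2.1.0 and cutadapt were used, with no role given for any. Annotation and strand setting: not given in the sources used here. Symbols came from the matrix, and gene types, coordinates and transcript lengths from GENCODE M21. For LXR DKO TG-AMH-LXRb, column names and sample descriptions disagree by 1 letter, so these columns were assigned by TG and number.

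Depth was worked back from the steps of the RPKM values: 98.1% of genes gave whole reads in all libraries, to within 0.02 reads. No pair of libraries of a group was a duplicate (lowest chi-square per degree of freedom 21.7). This value was 21.7 to 27.6 between LXR DKO TG-AMH-LXRb libraries, 25.8 to 72.2 between LXR DKO libraries and 53.5 to 191 between WT libraries. Kept were genes reaching 1 RPKM in at least 3 of the 6 WT and LXR DKO libraries. Values were taken as log2(RPKM + 1), which understates the change of low genes, and fitted in limma 3.58.1 (R 4.3.3) with a variance trend, genotype as the only factor and all 9 libraries. The Benjamini-Hochberg adjustment ran over 15773 genes, with a threshold of 0.05. On simulated shifts of 1 on the log2 scale in this comparison, 82 of 100 genes were recovered, and of shifts of 2, 97 of 100. There were 16 false calls among 15773 genes. The simulated noise was independent between genes and had the same spread in every genotype. It thus leaves out deviations that many genes of a library share, and these numbers do not give the error rate of the real libraries.

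Steady genes passed, with the same sign, in the main test, with a pseudocount of 0.1, on the 6 libraries alone, after quantile normalization, without the variance trend, without each of the 9 libraries in turn, and without WT 1 and LXR DKO 1 together. Named genes are the 15 largest steady rises and falls, the 8 largest rises and falls in RPKM, up to 4 per class (steady ones first), the LXR genes and targets, and up to 5 per dense window; 1 gene the rule selects is not reported here. Rpl3, Rpl15, Rnf112, Cd300e and the genes near absent in 1 genotype were chosen after their values were seen, as were the genes whose promoters are shown. Members and lists were chosen with earlier results of these data known, so classes are given as counts and medians with no test of a class. Motifs were searched on both strands in RefSeq promoter windows of GRCm38.p6, leaving out chromosome 18.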

Additional observations from a re-analysis of the deposited data

How the results depend on the processing

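With 1809 genes past the test (597 higher, 1212 lower), the count was 1071 (323 and 748) with no filter on low values, 902 (249 and 653) on the 6 libraries alone and 1094 (503 and 591) with the length trend removed over the protein-coding genes. It was 1247 (385 and 862) without WT 1 and LXR DKO 1 together. Leaving out 1 library at a time gave 653 to 2229 genes, 191 to 948 higher and 462 to 1406 lower. LXR DKO 3 gave the lowest count, and WT 3 the highest. The other settings gave 1545 (stricter filter) to 1815 (quantile normalization), and voom on reads worked back, chosen after seeing the data, gave 1651. Of the 1809 genes, 1762 kept call and sign with a pseudocount of 0.1, 892 on the 6 libraries alone and 650 without LXR DKO 3, and 0 changed sign in these settings. With the length trend removed, 2 of the 1090 protein-coding calls changed sign, and neither passed there. With the replicate number as a block the count was 1295 (393 and 902). The labels do not say whether the numbers pair the samples, and the correlations cannot decide it. Deviations of same-numbered WT and LXR DKO libraries 1 to 3 correlated at 0.609, -0.175 and 0.038, and those of differently numbered ones at -0.501 to 0.503. The direction of Pltp turned from -0.17 to 0.133 without WT 3, and it ranged from -0.383 to 0.133 when 1 library was left out. That of Tmem97 turned from 0.01 to -0.0423 without WT 3, to -0.108 without LXR DKO 1 and to -0.0933 without WT 1 and LXR DKO 1, with a range of -0.108 to 0.0983 over single libraries left out. Neither gene passed the test, and the cause was not tested. At this depth, WT values such as those of Amdhd1 rest on few reads.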
